A study of Mus musculus with 3 samples.

Results

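Expression of 10 genes of the urea cycle and of liver zonation was examined in Hepa1c1c7, a mouse hepatoma cell line. The genes were Cps1, Otc, Ass1, Asl, Arg1, Arg2, Glul, Cyp2e1, Axin2 and Pck1, and they were taken by name from the 22911 named genes of the array. The rule used no measured value, but the genes were chosen when earlier results of these data were known. Their 15 probes were found through the transcript accession of each probe, and Axin2, Cyp2e1, Glul and Otc had more than 1 probe. The cells were transfected with 2 μg of an empty vector (pCMV6-Kan/Neo), of an Mst1r vector or of an Slpi vector, the last 2 carrying the coding sequence of the mouse gene, and were collected 1 day later. Each of these groups was 1 culture on 1 single-colour array, labelled from 100 ng of total RNA, and the labels name no other treatment. The expression was transient, and the methods name no selection for transfected cells. A single array per group allows no test between the groups, and the differences below lack a replicate check. Values given as a series of 3 follow the order empty, Mst1r and Slpi vector.

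The urea cycle turns ammonia into urea in hepatocytes. Cps1 and Otc carry out the steps inside mitochondria, Ass1 and Asl make arginine in the cytosol, and Arg1 splits arginine into urea and ornithine. In the liver lobule these enzymes, together with the gluconeogenic enzyme Pck1, are highest near the portal vein. Around the central vein, Wnt signals acting through beta-catenin maintain Glul, which binds remaining ammonia into glutamine, and Cyp2e1, a cytochrome P450 that oxidises ethanol and other small molecules. Axin2 is a feedback inhibitor and a widely used target gene of that pathway.

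Transcripts of a part of each programme were detected. Of the 10 genes, 5 had a probe well above background on all 3 arrays, namely Ass1, Asl, Arg2, Glul and Axin2. Otc was well above background on 1 array only, and Cps1, Arg1, Cyp2e1 and Pck1 on none. "Well above background" is the mark that the scanner software gives to a spot whose signal clearly exceeds the local background, and such probes are called detected here. Over all 22911 named genes, 54.4% were well above background on all arrays, 37.7% on none and 7.9% on 1 or 2, so 5 of 10 was near the share of all genes. A probe that is not well above background sets only an upper bound on its transcript.

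The promoters of 4 of the genes are shown because they pair a gene detected on all arrays with one detected on 1 array (Otc) or on none (Cyp2e1) of the same pathway or zone. The table of RefSeq promoters (build GRCm38.p6) held 6 of the 10 genes, and Cps1, Asl, Arg1 and Arg2 were not among them. Each sequence is the 250 bases before the start site on the plus strand, 5′ to 3′, with every CpG dinucleotide in capitals. Ass1 (chr2:31470020-31470269) and Otc (chrX:10252055-10252304) encode urea cycle enzymes, and Glul (chr1:153899679-153899928) and Cyp2e1 (chr7:140763569-140763818) are pericentral genes.
Ass1: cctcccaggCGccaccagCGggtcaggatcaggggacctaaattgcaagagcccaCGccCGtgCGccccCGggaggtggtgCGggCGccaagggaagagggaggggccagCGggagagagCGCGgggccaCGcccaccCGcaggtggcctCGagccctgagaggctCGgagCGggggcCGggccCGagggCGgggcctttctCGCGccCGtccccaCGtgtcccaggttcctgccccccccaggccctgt
Otc: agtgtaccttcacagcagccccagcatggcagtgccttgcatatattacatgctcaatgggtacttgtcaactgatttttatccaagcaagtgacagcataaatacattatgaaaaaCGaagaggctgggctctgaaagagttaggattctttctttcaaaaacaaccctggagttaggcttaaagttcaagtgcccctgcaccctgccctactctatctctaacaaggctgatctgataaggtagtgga
Glul: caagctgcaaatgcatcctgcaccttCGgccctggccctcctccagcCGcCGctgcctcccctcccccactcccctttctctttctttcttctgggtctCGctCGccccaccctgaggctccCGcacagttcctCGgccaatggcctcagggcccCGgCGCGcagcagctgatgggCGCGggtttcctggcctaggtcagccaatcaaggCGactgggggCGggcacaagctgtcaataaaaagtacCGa
Cyp2e1: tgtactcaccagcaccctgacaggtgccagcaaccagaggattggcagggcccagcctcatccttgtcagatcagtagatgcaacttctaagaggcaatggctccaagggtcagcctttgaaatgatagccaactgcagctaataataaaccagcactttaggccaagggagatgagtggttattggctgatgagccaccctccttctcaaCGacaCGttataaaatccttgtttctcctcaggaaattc

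The genes detected on all arrays had more CpG dinucleotides in this window. Ass1 held 23, Glul 15 and Axin2 (chr11:108920099-108920348) 24, whereas Otc held 1, Cyp2e1 2 and Pck1 (chr2:173152823-173153072) 5. The share of G and C bases was 75.6% in Ass1, 64.8% in Glul and 69.2% in Axin2, and 43.6% in Otc, 48.8% in Cyp2e1 and 50.8% in Pck1. The same difference was seen over all named genes with a promoter entry, where the highest CpG count was taken for a gene with several entries. The median was 16 CpGs for the 9956 genes well above background on all arrays and 4 for the 6716 genes on no array. The split among the 6 genes was therefore not particular to them. The motif TATAAA, searched on both strands, was present only in Cyp2e1 among the 6, beginning 31 bases before the start, and in 12.4% of all 32851 promoters of this length. DNA methylation of these promoters was not analysed here.

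**Figure D1:**
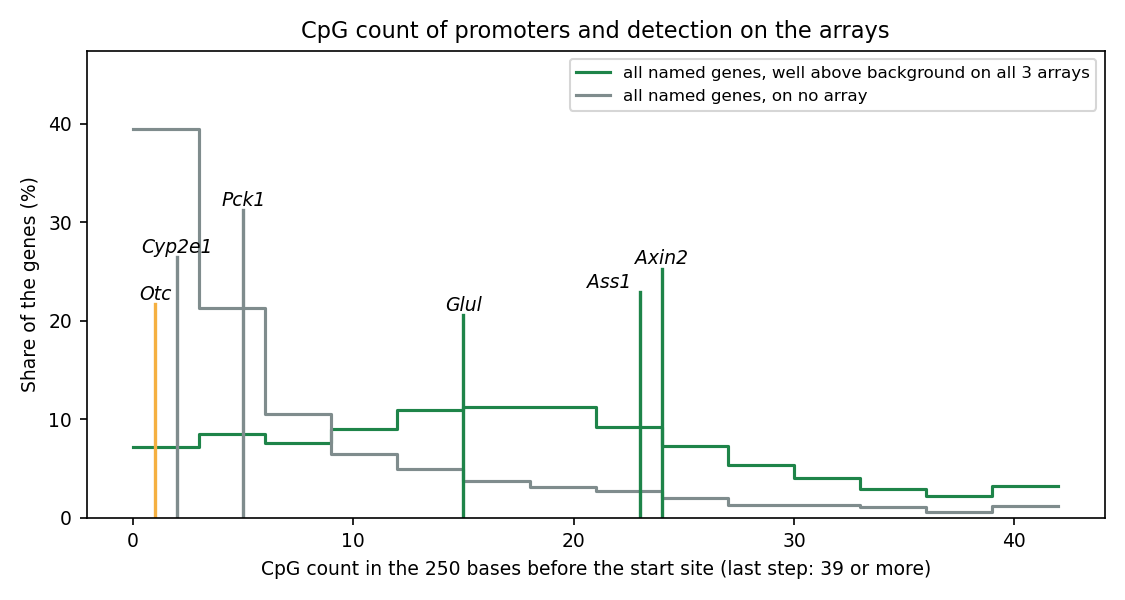
CpG dinucleotides in the 250 bases before the start site (x axis) against the share of genes in % (y axis), drawn as steps for all named genes well above background on all 3 arrays (green) or on no array (grey). Vertical lines mark the 6 genes with a promoter entry (green, on all arrays; orange, on 1 array; grey, on none; line heights have no meaning): Ass1, Axin2 and Glul lie at 15 to 24 CpGs and Otc, Cyp2e1 and Pck1 at 1 to 5.

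The arrays were alike in overall signal. Between 46.7% and 48.5% of the 56605 probes were well above background, and the 75th percentile of the processed signal, to which the arrays were scaled, was 268, 229 and 254. The processed signal is the spot intensity after background subtraction, and the lowest value of any probe was 3.74, 3.73 and 3.26. The vectors' own genes were not seen to rise: the Mst1r probe was not well above background with any vector (4.15, 4.08 and 3.7), and the brighter Slpi probe differed by 0.13 ± 0.13 (log2) between Slpi and empty vector. The sources used here do not say whether these probes lie in the transfected coding sequence. Mst1r vector and Slpi vector therefore stand for the labels of the arrays. The paper reports that real-time PCR found Mst1r raised in Hepa1c1c7 cells given its vector, a measurement that was not analysed here. Of 16 hepatocyte markers 6 (37.5%, against 54.4% of all named genes) were well above background on all arrays, Alb, Afp, Trf, Foxa2, Serpina1b and Tdo2. Apoa1, Fgb, Serpina1a and Ttr were so on 1 or 2 arrays, and Ahsg, Apob, Apoh, Cebpa, Hnf4a and Hpd on none. Alb, Afp and Trf encode proteins that hepatocytes or fetal liver secrete, and Hnf4a and Cebpa are defining transcription factors of mature hepatocytes. Tdo2, in row 22, was the only marker 2-fold apart, with 23.8, 53.5 and 22.6.

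The entry of ammonia into the urea cycle was little detected. Cps1 (NM_001080809), which makes carbamoyl phosphate from ammonia, had processed signals of 13.5, 4.22 and 3.65 on the empty, Mst1r and Slpi vector arrays. No value was well above background, so no fold is given. Nags, which makes the activator that Cps1 needs, was likewise detected on no array, with 4.21, 4.11 and 3.68. Otc, which joins carbamoyl phosphate to ornithine, had 2 probes with different accessions. The first (NM_008769) gave 44.5 on the empty vector array, where it was well above background, and 4.08 and 3.47 on the others, where it was not. On the scaled signal the Mst1r vector array was at least 2.02-fold lower and the Slpi vector array at least 2.55-fold lower, taking the lowest signal well above background on the dim array as the bound. The second Otc probe (XM_011247449) was detected on no array, with 4.16, 4.12 and 3.74. Thus 1 of 6 measurements of Otc was well above background.

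The position of the single bright Otc spot bears on this value. It lay in row 74, among the upper rows that held 33.7% of the probes, and stray bright spots were found mainly in those rows. Among control spots of the empty vector array that have no target and were dark (under 15) on the other arrays, 25 of 757 in the upper rows reached the Otc signal of 44.5, which is 3.30% (95% exact binomial interval 2.15 to 4.84). In the lower rows it was 0 of 1703, with an upper bound of 0.216% by the same interval. Of the 24 spots around the Otc spot, 10 were dark on both other arrays, and 2 of these were over 15 on the empty vector array, the brighter at 138. In the lower rows alone, Otc was detected on no array. Whether the bright spot was a stray one was not tested. The intervals cover counting error only.

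The cytosolic steps that make arginine were well detected. Ass1 (NM_007494), which joins citrulline to aspartate, had processed signals of 6145, 4474 and 5850. The Mst1r vector array was lowest and the other two were near each other. The scaled log2 difference from empty vector was -0.23 ± 0.13 with Mst1r vector and 0.01 ± 0.13 with Slpi vector, where the error is the SD of the difference expected from probes printed at least 10 times on 1 array and covers no variation between cultures. Asl (NM_133768), which releases arginine and fumarate from argininosuccinate, gave 1447, 945 and 1322 in the same order. Its scaled log2 difference from empty vector was -0.38 ± 0.14 on the Mst1r vector array, larger than the error between spots, and -0.05 ± 0.12 on the Slpi vector array, within it. The only Asl spot lay in row 62, in the upper rows.

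Of the arginase genes, one was dark and the other detected. Arg1 (NM_007482), the cytosolic arginase of periportal hepatocytes, had signals of 4.43, 4.35 and 3.7, close to the lowest value of each array. Arg2 (NM_009705), the mitochondrial arginase found mainly outside the liver, was well above background throughout, with 116, 76.0 and 112. Arg2 was lowest with Mst1r vector, at a scaled log2 difference of -0.38 ± 0.24 from empty vector, and differed by 0.02 ± 0.24 with Slpi vector. Levels of different probes are not comparable, so the 2 genes can be contrasted only in being detected or not.

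**Figure D2:**
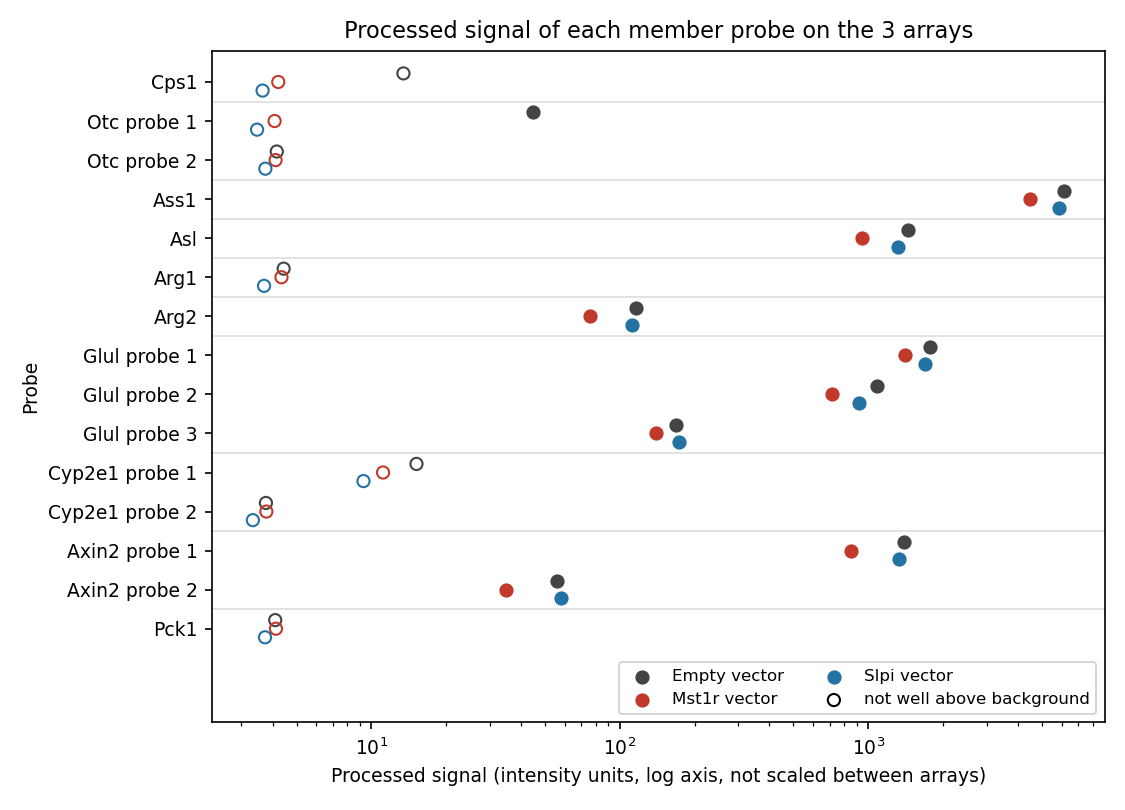
Processed signal (x axis, intensity units, log scale, not scaled between arrays) of each of the 15 probes (y axis), 1 point per array coloured by vector. Filled points were well above background and open points were not: the probes of Ass1, Asl, Arg2, Glul and Axin2 are filled on all 3 arrays, the first Otc probe only with empty vector, and those of Cps1, Arg1, Cyp2e1 and Pck1 on none.

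Genes that supply or surround the cycle were mostly present. In a list of 22 genes of urea cycle support and ammonia handling, 17 (77.3%, against 54.4% of all named genes) were well above background on all arrays, among them Glud1 and Gls2, which release ammonia from glutamate or glutamine, Oat, which makes glutamate semialdehyde from ornithine, the aspartate and glutamate carriers Slc25a12 and Slc25a13, and the ornithine carrier Slc25a15. Nags, Car5a, Gatm, Rhbg and Rhcg were on none. No gene of the list differed 2-fold between arrays. Gls2, the liver glutaminase, gave 1707, 1070 and 1617, a log2 difference of -0.44 ± 0.12 with Mst1r vector and 0.00 ± 0.12 with Slpi vector. Asns, which makes asparagine from aspartate and is induced by amino acid shortage, went the other way with Mst1r vector, with 9765, 11279 and 9599 and a log2 difference of 0.44 ± 0.13. These probes of Gls2 and Asns lay in rows 91 and 56, in the upper rows. Their other probes, in rows 338 and 305, differed by -0.52 ± 0.36 and 0.31 ± 0.16 with Mst1r vector. The median of the 16 genes over the signal minimum was -0.05 with Mst1r and 0.01 with Slpi vector, the same to 2 decimals as the median of all 11490 genes over that minimum.

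The pericentral enzymes were split in the same manner as the urea cycle. Glul (NM_008131), glutamine synthetase, was well above background with all of its 3 probes. The brightest probe gave 1764, 1399 and 1694, a scaled log2 difference of -0.10 ± 0.12 and 0.02 ± 0.12. The second gave 1083, 713 and 916, a difference of -0.37 ± 0.14 and -0.16 ± 0.14. The third gave 168, 140 and 174, a difference of -0.03 ± 0.24 and 0.12 ± 0.24. On the Mst1r vector array the 2 brighter probes thus gave -0.10 and -0.37, and this gap was not tested against the error of both probes together. The second probe lay in row 42, in the upper rows, and the others in rows 180 and 322. Over all detected probes the median difference with Mst1r vector was -0.06 in the upper and -0.05 in the lower rows. Cyp2e1 (NM_021282) was not well above background with either probe on any array, with 15.2, 11.1 and 9.29 for one and 3.76, 3.78 and 3.33 for the other.

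In a list of 28 pericentral genes, which includes Glul and Cyp2e1, 17 (60.7%) were well above background on all arrays, and in a list of 22 periportal genes, which includes Pck1, 7 (31.8%) were. The share over all named genes, 54.4%, lay between them. The pericentral genes on all arrays included Lgr5, Tbx3, Rgn, Lect2, Ahr, Aldh1a1 and Oat, whereas Cyp7a1, Cyp2c29, Cyp2a5, Gulo and Slco1b2 were among those on none. The periportal genes on all arrays were Alb, Gls2, Igfbp2, Pcx, Pigr, Sox9 and Tat. Fbp1, Hal, Sds, Cyp2f2, Agxt, Hsd17b13 and others were on none. These counts describe what the probes detected and were not tested against each other, and the lists were picked by hand.

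**Figure D3:**
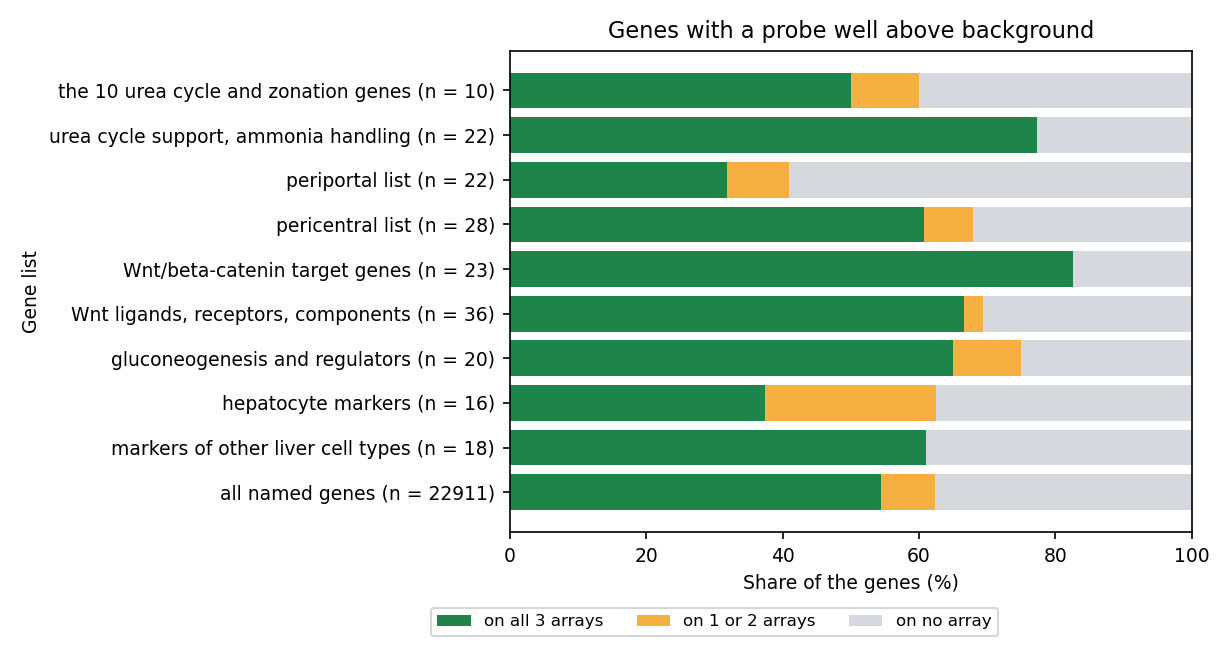
Share of genes in % (x axis) with a probe well above background on all 3 arrays (green), on 1 or 2 arrays (orange) or on no array (grey), for the 10 genes, each gene list and all named genes (y axis, with the number of genes; lists overlap). Of the 10 genes 5 are on all arrays, near the 54.4% of all named genes, and the periportal list is at 31.8% and the pericentral list at 60.7%.

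Pck1 (NM_011044), the cytosolic phosphoenolpyruvate carboxykinase and a rate-limiting enzyme of gluconeogenesis, had signals of 4.1, 4.13 and 3.73, none well above background. Its mitochondrial isozyme Pck2 was well above background on all arrays, with 1320, 1305 and 1374, and a scaled log2 difference of 0.21 ± 0.12 with Mst1r vector and 0.14 ± 0.12 with Slpi vector. As with arginase, the mitochondrial form was detected and the cytosolic hepatic form was not. In a list of 20 gluconeogenic genes with their isozymes and regulators, which includes Pck1, 13 (65.0%) were well above background on all arrays, against 54.4% of all named genes. These included pyruvate carboxylase (Pcx), the glucose 6-phosphate carrier Slc37a4 and the ubiquitous phosphatase G6pc3. The hepatic G6pc was well above background on 1 array only, with 16.2, 22.1 and 15.6, and Fbp1 was on none.

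Axin2 (NM_015732) was measured by 2 probes, which gave like differences. The brighter probe had signals of 1391, 849 and 1331. The scaled log2 difference was -0.48 ± 0.14 with Mst1r vector, a 1.40-fold lower signal, and 0.01 ± 0.12 with Slpi vector. The dimmer probe had 55.9, 34.7 and 57.9 and differed by -0.46 ± 0.45 and 0.13 ± 0.45. Both probes were lowest on the Mst1r vector array, although for the dimmer one the difference was about the size of its error. In the comparison that leaves out the empty vector array, Mst1r against Slpi vector, the brighter probe differed by -0.50 ± 0.14. It uses the same spot of the Mst1r vector array, so this value is not independent of the one against empty vector.

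No member reached a 2-fold difference over the signal minimum of 50 in any comparison. With Mst1r vector against empty vector 0 of 10 were higher and 0 lower by this measure, against 1.72% and 1.19% of all 22911 named genes. With Slpi vector against empty vector both counts were 0, against 0.965% and 1.09%, and with Mst1r vector against Slpi vector both were 0, against 1.63% and 0.991%. At these shares of all genes, a count of 0 among 10 does not set the genes apart. The comparisons with empty vector share the empty vector array, and those of Mst1r vector share the Mst1r vector array, so their values are not independent. Of the 10 genes, 5 passed the minimum and were well above background on all arrays. The signals of the other 5 did not exceed 44.5 on any array.

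All 5 genes that passed were lower with Mst1r than with empty vector, as were 61.6% of the 11490 genes that passed over the whole array. Their median log2 difference was -0.38, and that of all genes -0.05. Relative to the median of all genes, which does not depend on the scaling factor, Axin2 differed by -0.43, Asl and Arg2 by -0.33, Ass1 by -0.18 and Glul by -0.05. Of all genes, 3.56% had a difference as low as that of Axin2 or lower, and the share was 6.14% for Asl, 6.18% for Arg2, 17.2% for Ass1 and 37.9% for Glul. These values are of the brightest probes, and the second Glul probe was lower, at -0.37 from empty vector before the median is taken off. With Slpi vector the 5 differences lay between -0.05 and 0.02, with a median of 0.01, as for all genes. The sign of the Slpi vector differences changed with the scaling, from 0 of 5 genes below 0 under median scaling to 5 of 5 under spike-in scaling, whereas the 5 genes stayed below 0 with Mst1r vector under every scaling tried. Between Mst1r and Slpi vector they ran from -0.12 for Glul to -0.50 for Axin2, with a median of -0.33. Under spike-in scaling that median was -0.20 and Glul was at 0.01, so that 4 of 5 were below 0. In a whole culture, less RNA per cell and fewer cells with the transcript cannot be told apart.

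**Figure D4:**
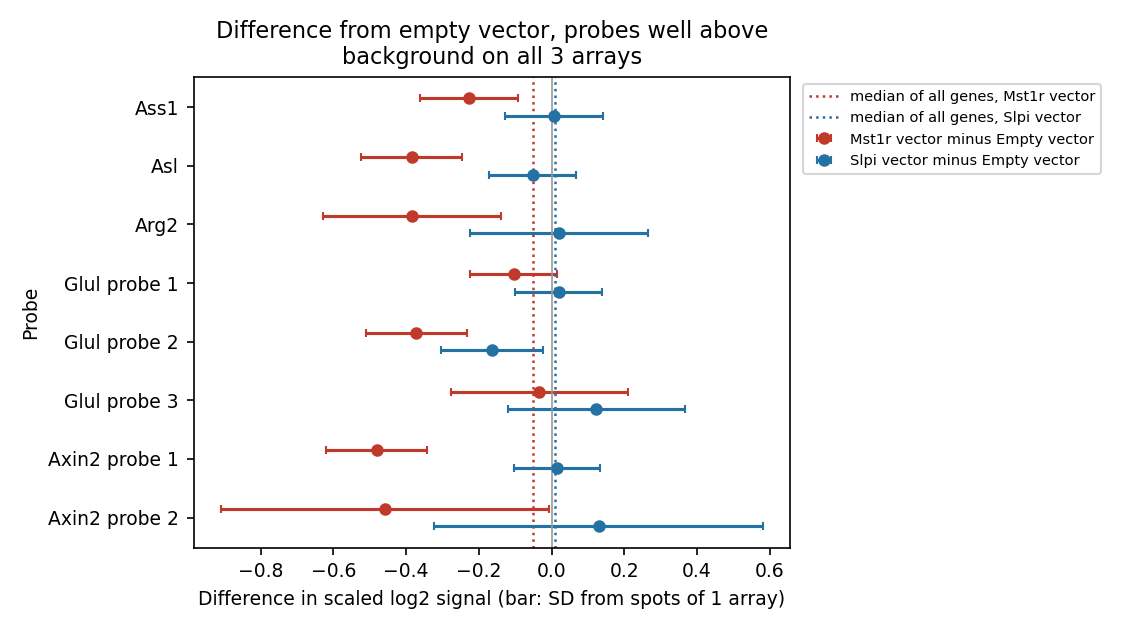
Difference in scaled log2 signal from empty vector (x axis) for the 8 probes well above background on all 3 arrays (y axis), with Mst1r vector in red and Slpi vector in blue. Bars are the SD expected from spots of 1 array and dotted lines the median of all genes: the red points of Asl, Arg2 and Axin2 lie between -0.38 and -0.48, the blue points between -0.16 and 0.13.

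Axin2 was set beside other Wnt target genes. Of a list of 23 targets, which includes Axin2, Glul and Cyp2e1, 19 (82.6%, against 54.4% of all named genes) were well above background on all arrays and Apcdd1, Cyp2e1, Dkk1 and Nkd1 on none. No target differed 2-fold. Lgr5, the receptor for R-spondins, gave 3252, 1915 and 3175, a log2 difference of -0.53 ± 0.12 with Mst1r vector and 0.04 ± 0.12 with Slpi vector. Sp5, a transcription factor induced directly by beta-catenin, gave 3923, 2267 and 3958, a difference of -0.56 ± 0.12 and 0.09 ± 0.12. Lef1, a partner of beta-catenin on DNA, gave 306, 201 and 298, a difference of -0.38 ± 0.21 and 0.04 ± 0.16. These and Axin2 were thus lower with Mst1r vector and near 0 with Slpi vector. The only spot of Lgr5 lay in row 51, in the upper rows, and the brightest probes of Sp5, Lef1 and Axin2 lay in the lower rows. The probes of Tnfrsf19, a receptor of the TNF family, disagreed. The brighter one, in row 15 among the upper rows, differed by -0.87 ± 0.21 and -0.72 ± 0.16, and the other, in row 232, by -0.31 ± 0.21 and -0.07 ± 0.16. The median of the 19 genes with Mst1r vector was -0.08, near the -0.05 of all genes, and 14 of 19 were below 0 (12 to 17 under the other scalings). The brightest probes of Tbx3, Notum, Ccnd1 and Myc differed by -0.07 to -0.02, each within its error of 0.12 or less. The other detected probes of Tbx3, Notum and Myc were lower, by -0.18 ± 0.12, -0.30 ± 0.36 and -0.18 ± 0.16. For Tbx3 and Myc this was larger than the error. Sox9 differed by 0.37 ± 0.16 with its brightest probe and by 0.21 ± 0.24 with the other.

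**Figure D5:**
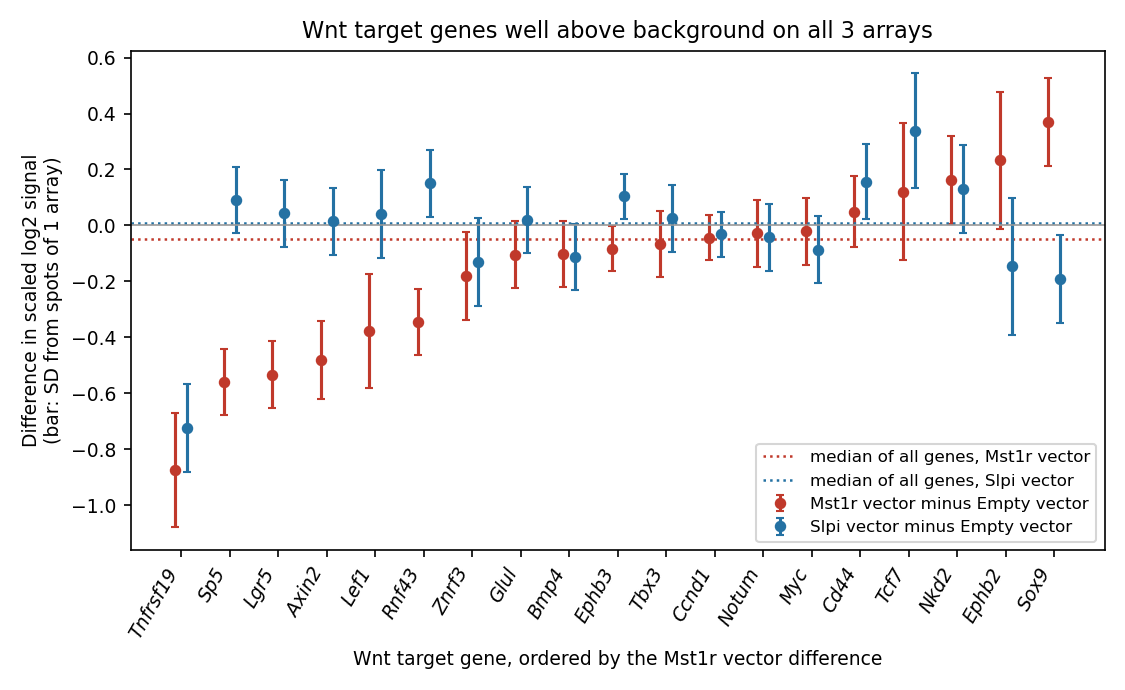
Difference in scaled log2 signal from empty vector (y axis) of the Wnt target genes well above background on all 3 arrays (x axis, ordered by the Mst1r vector value), with Mst1r vector in red, Slpi vector in blue, bars for the SD expected from spots of 1 array, dotted lines for the median of all genes and the brightest probe standing for each gene. Tnfrsf19, Sp5, Lgr5, Axin2 and Lef1 lie at -0.87 to -0.38 with Mst1r vector, while Glul, Tbx3, Ccnd1, Notum and Myc lie between -0.10 and -0.02.

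Components of the Wnt pathway were also measured. Of 36 ligands, receptors and intracellular components 24 (66.7%) were well above background on all arrays, against the same 54.4%, including beta-catenin (Ctnnb1), Apc, Axin1, Gsk3b, Lrp5, Lrp6 and Tcf7l2. Wnt2 and Wnt9b, ligands made by endothelial cells of the central vein, and Rspo3 were on none. Wnt5a gave 157, 71.2 and 156, a log2 difference of -0.91 ± 0.24 with Mst1r vector and 0.07 ± 0.24 with Slpi vector. Fzd5, a receptor, was the only component 2-fold apart, and its brightest probe had 67.0, 15.3 and 36.0. The value on the Mst1r vector array was not well above background, and at least 3.03-fold lower than that with empty vector. Its spot lay in row 43, in the upper rows. The other Fzd5 probe, in row 271, was detected on all arrays with 42.0, 29.8 and 36.3, a difference of -0.26 ± 0.58 with Mst1r vector, so the probes did not give the same result. The median of the 22 components over the minimum was -0.10 with Mst1r vector and -0.03 with Slpi vector.

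Among the pericentral genes, Ahr, the aryl hydrocarbon receptor, differed by -0.86 ± 0.14 with Mst1r and -0.11 ± 0.12 with Slpi vector, and Rgn, a calcium-binding protein, by -0.79 ± 0.36 and 0.01 ± 0.24. Nr1i3, a nuclear receptor for foreign compounds, differed by 0.86 ± 0.58 with Mst1r vector, at signals of 25.3, 39.1 and 20.8. All 14 pericentral genes over the minimum, Glul among them, were below 0 with Mst1r vector (12 of 14 under median scaling or scaling to the detected probes), with a median of -0.19, against 61.6% of all genes below 0 and a median of -0.05. With Slpi vector 8 of 14 were above 0, a count that ran from 1 to 14 over the scalings. Of the 6 periportal genes over the minimum 4 were above 0 with Mst1r vector, and 3 with spike-in scaling or without scaling. Albumin gave 5083, 6449 and 4966, a difference of 0.57 ± 0.13 with Mst1r vector. The difference between the 2 lists was not tested. Cyp2c37 and Sult5a1 were the only genes of these lists 2-fold apart, and the bright spots of both lay in the upper rows. Cyp2c37 had 88.4, 26.4 and 20.7, and Sult5a1 had 61.3, 109 and 15.5. The second Sult5a1 probe, in row 111, was detected on no array.

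Markers of other liver cell types were set beside these values. Of 18 such markers 11 (61.1%, against 54.4% of all named genes) were well above background on all arrays. These were Acta2, Cd68, Col1a1, Dcn, Des, Krt19, Krt7, Lyve1, Pecam1, Spp1 and Stab2. Adgre1, Cdh5, Clec4f, Epcam, Kdr, Lrat and Ptprc were on none. Some detected markers were dim and below the signal minimum on every array. Lyve1 gave 23.3, 24.4 and 19.3, Pecam1 35.9, 32.1 and 24.1, and Stab2 47.4, 39.2 and 37.3 with its brightest probe. The summed signal of all 18, scaled to the empty vector array, was 85138, 68602 and 82797. That of the 16 hepatocyte markers was 75975, 71899 and 78000. Levels of different probes are not comparable. Each sum is weighted to its brightest probes, such as Dcn (41199 with empty vector) and Trf (48573), and does not measure a cell type. Of the 7 markers of other cells above the minimum 6 were below 0 with Mst1r vector, against 61.6% of all genes, with a median of -0.35 against -0.05. Des, a marker of stellate cells, had 227, 37.9 and 58.2, and its 1 spot lay in row 55, in the upper rows. It differed by -2.35 ± 0.36 with Mst1r and -1.89 ± 0.36 with Slpi vector. Whether the bright Des spot was a stray one was not tested. Krt7, a marker of bile duct cells, differed by -0.50 ± 0.13 and 0.08 ± 0.13. Col1a1, a collagen of stellate cells and fibroblasts, was the marker above 0 with Mst1r vector, by 0.27 ± 0.13 with the brighter probe and 0.25 ± 0.13 with the other. All arrays were of cultures of the Hepa1c1c7 line alone. These transcripts are therefore read as those of the line, and not as shares of other liver cells. Their relation to the differences of Axin2, Asl and Arg2 was not tested.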

How the data were processed

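Gene expression was measured on Agilent SurePrint G3 Mouse arrays of 1 colour, each with 62976 spots, 1 array for each of 3 cultures. Per the file headers, the authors extracted the spot intensities with Feature Extraction 12.0.3.1. The deposited intensity used here is the processed signal, which is background-subtracted, spatially detrended and not scaled between arrays. The intensity table of the whole series held the same values, within 0.01 (log2) of the mean over spots for 99.95% of them.

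Probes were named by matching the accession to a RefSeq gene table (GRCm38.p6), which matched 32994 of 56605 probes and 25126 of 47837 accessions. Control spots were left out of the gene values. A spot marked as an outlier was left out only where its probe also had an unmarked spot, so a probe on 1 spot always kept its value. The log2 signal was scaled to the 75th percentile of each array, as the methods state. The brightest probe stood for a gene in counts. A gene was counted when it differed at least 2-fold with a processed signal over 50 on the brighter array, which is the minimum of the methods. Medians were taken over genes well above background on all arrays with a mean signal over 50. With 1 array per group no test was made. The error after a difference is its SD, combined from the SDs between repeated spots at the signal level on both arrays, for probes with 10 or more spots. These probes included control probes, and all of their spots were kept. The genes and lists were chosen with earlier results of these data known. All 10 genes are named with every probe. Of each list, values are given for genes 2-fold apart and for up to 4 with the largest difference from empty vector, plus a few named for contrast after their values were seen. Calculations were made in Python 3.11.15 with pandas 2.3.3, and the normexp alternative in R 4.3.3 with limma 3.58.1. The counting and scaling were tested on simulated data in which only bright genes were changed and no stray spots were added. That test does not cover dim genes or stray spots. Some genes of the lists are not reported here by name.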

Additional observations from a re-analysis of the deposited data

How the results depend on the processing

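The counts of the 10 genes at least 2-fold apart were 0 in every comparison and direction, except that without the signal minimum 2 genes (Otc and Cps1) were counted as lower with each of the Mst1r and Slpi vectors against empty vector, and 1 gene (Otc) was when the mark of a spot well above background replaced the minimum. The 5 genes well above background on all arrays became 4 in the lower rows of the arrays, where Asl has no probe. The other scalings were the 75th percentile over probes well above background on all arrays, the median, the spike-in probes and no scaling. Under these, normexp with an offset of 50, the series table, the mean over probes, all spots kept and, chosen after seeing the data, quantile normalization, the log2 difference with Mst1r vector ran from -0.71 to -0.40 for Axin2, from -0.61 to -0.33 for Asl, from -0.61 to -0.18 for Arg2, from -0.46 to -0.18 for Ass1 and from -0.33 to -0.05 for Glul. With Slpi vector the 5 genes ranged from -0.29 to 0.19. Between the Mst1r and Slpi vectors their median ran from -0.48 without scaling to -0.20 with spike-in scaling. The median of all genes moved from -0.05 to -0.28 without scaling on the Mst1r vector array, and from 0.01 to -0.23 with spike-in scaling and 0.17 with median scaling on the Slpi vector array. The number of all genes 2-fold apart with Mst1r vector fell from 395 higher and 272 lower to 134 and 32 in the lower rows, and with Slpi vector from 221 and 250 to 31 and 9. Without the minimum it rose to 1127 and 1032, and to 739 and 1124. Between the Mst1r and Slpi vectors 373 and 227 became 124 and 41, or 1231 and 756.

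No paired analysis was possible because each group is 1 array. A single culture per group leaves culture and vector impossible to tell apart. The position on the slide likewise cannot be told apart from the vector. A probe not well above background, such as that of Cps1, Arg1 or Pck1, gives no lower limit for its transcript.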

Other observations

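A few genes of the liver lists were, like Otc, well above background on 1 array only or on some. Cyp1a2, a pericentral cytochrome P450 whose gene responds to the aryl hydrocarbon receptor, had processed signals of 45.0 with empty vector and 4.34 and 3.75 on the other arrays, with its spot in row 28, in the upper rows. Apoa1, which encodes the main protein of high-density lipoprotein, was well above background on the Slpi vector array only (4.83, 9.64 and 43.1 in the order empty, Mst1r and Slpi vector, row 167). Fgb, a chain of fibrinogen, was so on the Mst1r vector array only (4.27, 28.4 and 3.93, row 152). All of these signals were under the minimum of 50, and none has a replicate.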
